A study of Mus musculus with 24 samples.

Results

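The 39 genes described here carry out sterol and fatty acid synthesis and its control in the cell. They were taken by symbol, with no threshold on a measured value but with earlier results of these data known, and fall into 6 roles. Supply of cytosolic carbon and of fatty acid chains has 5 genes, mevalonate to squalene 9, lanosterol to cholesterol 9, regulators of the SREBP transcription factors 5, desaturation and elongation of fatty acids 6, and sterol transport with LXR targets 5. All 39 were among the 47480 genes of the count table and among the 14772 genes that passed the filter on low counts. The study profiled mRNA of wild-type mouse embryonic fibroblasts in 24 libraries. The 8 groups of 3 libraries cross a control small interfering RNA (siCTRL) or one named for Cop1 (siCop1) with the solvent DMSO or the compound KL001, each without or with the agent that the labels call Dexa. All groups therefore share the wild-type genotype, an siRNA and either DMSO or KL001. Doses, times, siRNA sequences, the number of embryos and the passage of the cells are not stated in these sources.

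Cop1 recruits substrates to a cullin ubiquitin ligase. KL001 is a compound that lengthens the circadian period by protecting cryptochromes, which repress clock genes, from degradation. Cells make cholesterol from acetyl-CoA through mevalonate, squalene and lanosterol, and make fatty acids from the same acetyl-CoA. When membrane sterol is low, the escort protein SCAP carries SREBP precursors from the endoplasmic reticulum to the Golgi, where proteases release their active part, which raises transcription of nearly every gene of the sterol pathway and, through SREBP1, of fatty acid synthesis. INSIG proteins hold SCAP back when sterol is plentiful, and Insig1 is itself an SREBP target. LXR receptors act at the other end, sensing oxysterols and raising genes of cholesterol efflux such as Abca1 and of lipoprotein receptor breakdown such as Mylip.

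Libraries held 21409988 to 27875023 counts, with a median of 25337292. Values below are counts scaled to a common library size (CPM) by the trimmed mean of M-values. They are not corrected for transcript length and are compared within a gene only. The targeted gene, listed under its older symbol Rfwd2, was at 25.0 to 29.7 CPM in the siCTRL libraries and at 4.33 to 5.79 CPM in the siCop1 libraries. Fkbp5, a glucocorticoid receptor target, went from 36.4 ± 0.969 to 719 ± 7.13 CPM (SD, n = 3) with Dexa in siCTRL DMSO, and Tsc22d3, another, from 100.2 ± 1.94 to 663 ± 16.8. Cry1, a cryptochrome gene, went from 22.8 ± 0.154 to 5.81 ± 0.666 CPM with KL001 in siCTRL without Dexa. Of 10 fibroblast markers 9 or 10 were at 1 CPM or more in each group, with a summed level of 41082 to 58363 CPM, although Dcn (1.55 to 4.58 CPM) and Lum (0.232 to 1.67 CPM) were low. Of the defining adipocyte markers, Adipoq, Plin1, Cidec and Lep were at 0 in 18 to 23 of 24 libraries and never above 3 counts. In such bulk RNA, fewer cells of a type and less RNA per cell cannot be told apart. "Rose", "fell" and "changed" below mean an adjusted p below 0.05 (edgeR, quasi-likelihood, Benjamini-Hochberg over all 14772 genes). The labels do not say that the 3 libraries of a group came from separate cultures, so p-values measure only the spread between libraries. That spread was estimated in 1 fit over all 8 groups, not from the compared groups alone.

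SREBP sites work beside binding sites of NF-Y and Sp1, so the promoters of the listed genes were read from the RefSeq table (GRCm38.p6, 250 bases before to 50 after the start site), where 30 of the 39 genes were matched. Promoters of Abcg1, Fads1, Fdft1, Fdps, Npc1, Scd1, Scd2, Sqle and Stard4 were not used here. The 200 bases before the start site are shown for 4 genes that rose with KL001 in every setting: Hmgcs1, the enzyme that forms HMG-CoA, Cyp51 and Msmo1, which remove methyl groups from the sterol ring, and Insig1. They are written 5′ to 3′ in the direction of transcription, with matches in capitals to the sterol regulatory element (TCACNCCAC), the NF-Y box (CCAAT) and the GC box of Sp1 (GGGCGG), on either strand.
Hmgcs1 promoter, chr13:119690151-119690350 (+ strand): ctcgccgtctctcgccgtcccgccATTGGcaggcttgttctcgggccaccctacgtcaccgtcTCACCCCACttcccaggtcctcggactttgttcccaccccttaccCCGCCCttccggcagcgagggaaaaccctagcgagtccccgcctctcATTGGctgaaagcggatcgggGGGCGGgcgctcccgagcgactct
Cyp51 promoter, chr5:4104698-4104897 (- strand): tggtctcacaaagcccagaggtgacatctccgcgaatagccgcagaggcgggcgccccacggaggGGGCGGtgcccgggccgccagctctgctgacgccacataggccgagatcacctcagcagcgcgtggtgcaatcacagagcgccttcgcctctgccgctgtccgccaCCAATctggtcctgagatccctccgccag
Msmo1 promoter, chr8:64733579-64733778 (- strand): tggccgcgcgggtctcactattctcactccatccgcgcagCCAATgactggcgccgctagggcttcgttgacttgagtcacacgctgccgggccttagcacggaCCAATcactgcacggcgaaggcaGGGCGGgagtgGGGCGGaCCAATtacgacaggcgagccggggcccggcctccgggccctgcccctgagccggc
Insig1 promoter, chr5:28071212-28071411 (+ strand): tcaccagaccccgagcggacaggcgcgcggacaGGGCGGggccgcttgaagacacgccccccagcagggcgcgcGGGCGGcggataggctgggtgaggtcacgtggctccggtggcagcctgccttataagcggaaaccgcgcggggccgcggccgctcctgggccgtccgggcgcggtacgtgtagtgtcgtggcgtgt

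Hmgcs1 carried a TCACNCCAC match that starts at base -137, with NF-Y boxes on the reverse strand at -176 and -45. As a check of direction, 30 bases downstream of each start site were sought in transcript sequences. They were found for 27 of the 30 matched genes, and not for Hmgcs1, Nsdhl and Sc5d. The Hmgcs1 positions therefore rest on the RefSeq start site alone. Msmo1 carried 3 NF-Y boxes at -160, -96 and -55 and GC boxes at -73 and -62. Cyp51 had 1 NF-Y box at -29 and 1 GC box at -135. Insig1 had 2 GC boxes in the stretch shown, at -167 and -126, and its NF-Y box lay upstream of it at -216. Over the whole 300-base window an NF-Y box was found in 24 of the 30 matched genes (80%) and in 41.1% of 27025 genes of the RefSeq table. A GC box was found in 25 of 30 (83.3%) and in 38.2% of all genes. Here and below a gene was counted if any of its listed start sites had the match. All genes means these 27025, which were not limited to genes expressed in these cells, so the shares are not compared like with like. No matches of different motifs overlapped in these genes. The sterol regulatory element letters were in 1 of 30 (Hmgcs1) and in 1.44% of all genes, which says only that these letters are not in the other windows. The E-box CACGTG was in 7 of 30 (23.3%) and in 8.09% of all genes. CLOCK and BMAL1 bind it in clock genes, and SREBP1 can bind it as well. The 7 genes with it were Abca1, Dhcr7, Elovl5, Hsd17b7, Insig1, Sc5d and Scap. The glucocorticoid element ACANNNTGT was in Acat2 and Acss2 only among the 30, and in 7.9% of all genes. A match is a description of sequence and was not tested as a binding site.

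KL001 raised most of these genes, in each of the 4 settings in which it can be compared with DMSO. In siCTRL cells without Dexa 23 of 39 rose and 1 fell, where 6.73% of all genes changed and 3.22% rose and 3.51% fell. In siCTRL cells with Dexa 27 rose and 0 fell (10.6% of all genes changed, 4.98% rose and 5.58% fell). After siCop1 25 rose and 0 fell without Dexa (4.09% changed, 1.77% rose and 2.32% fell), and 28 rose and 0 fell with Dexa (5.46% changed, 2.5% rose and 2.97% fell). The 4 comparisons share no library, though 1 estimate of the spread served all of them. In all 4, 23 genes of the list rose, with at least 1 gene of each of the 6 roles. The share of all genes that rose in all 4 was not counted. It can be at most the 1.77% that rose in siCop1 without Dexa. The median log2 change of the 39 genes was 0.14, 0.17, 0.18 and 0.25 in this order, where that of all genes tested lay between -0.003 and 0.003. Changes were modest, and no gene of the list changed by a factor of 2 or more. The plot of shares sets these counts beside those of the other factors.

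**Figure D1:**
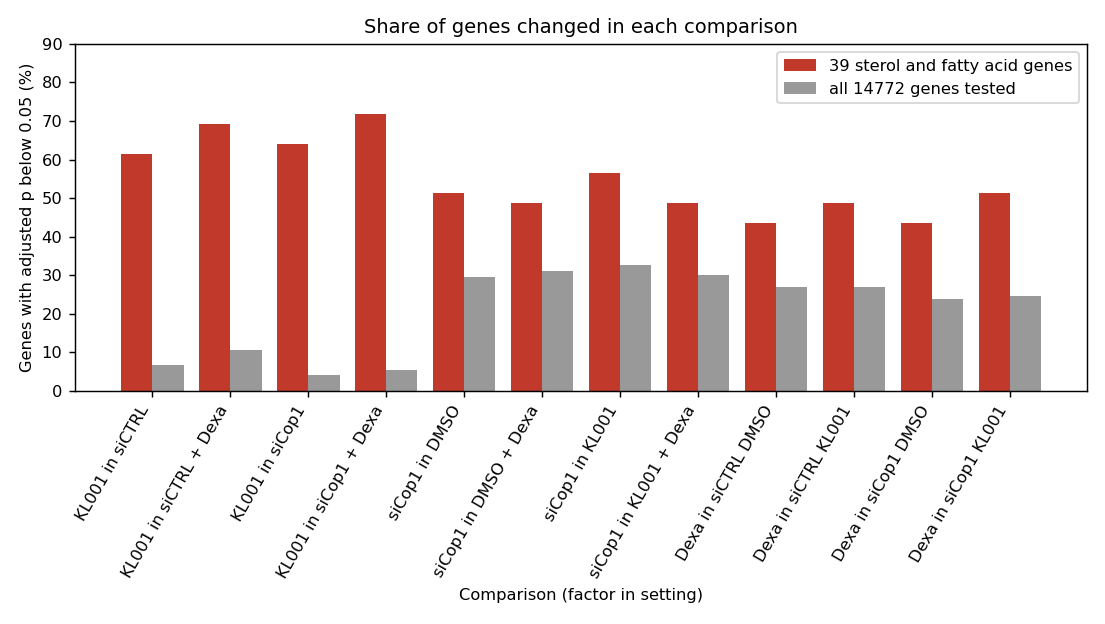
Percent of the 39 sterol and fatty acid genes (red bars) and of all 14772 genes tested (grey bars) with an adjusted p below 0.05, in each of the 12 comparisons of 1 factor in 1 setting. The red bars of the 4 KL001 comparisons stand at 61.5% to 71.8% beside grey bars of 4.09% to 10.6%, and in the siCop1 and Dexa comparisons red bars stand at 43.6% to 56.4% beside grey bars of 23.7% to 32.7%.

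Of the 9 genes from acetyl-CoA to squalene, 7 rose in siCTRL without Dexa and 8 in each other setting. Hmgcs1, which forms HMG-CoA, was at 302, 319 and 321 CPM in siCTRL DMSO and at 395, 358 and 398 with KL001. The lowest KL001 library lay above the highest DMSO library, and the fold was 1.22 to 1.3 over the 4 settings. Mvd, which decarboxylates mevalonate diphosphate, was at 107, 104 and 102 CPM in siCop1 DMSO with Dexa and at 136, 146 and 139.6 with KL001 added. The groups did not overlap (log2 0.43 ± 0.037, SE, adjusted p = 3.64e-09). Fdps, which makes farnesyl diphosphate, the branch point towards prenylation and sterols, was at 22.3, 24.7 and 21.8 CPM in siCop1 DMSO and at 30.8, 31.2 and 32.1 with KL001, 1.37-fold higher. Every KL001 library was again above every DMSO library, and the other settings gave a fold of 1.29, 1.22 and 1.34.

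Idi1, the isomerase that makes dimethylallyl diphosphate, had the largest log2 change with KL001 among those called, and also low counts. It was at 2.84, 2.59 and 3.15 CPM in siCTRL DMSO with Dexa and at 4.59, 4.39 and 4.73 with KL001, without overlap (log2 0.67 ± 0.13, adjusted p = 0.00121). In siCTRL without Dexa its libraries overlapped, at 2.81, 3.45 and 3.42 CPM against 3.46, 3.25 and 4.25 (adjusted p = 0.507). It also rose after siCop1 without Dexa (log2 0.51 ± 0.13), a call lost without siCop1 DMSO replicate 1 (adjusted p = 0.0687) or 3 (0.099) or siCop1 KL001 replicate 2 (0.10). The call after siCop1 with Dexa was lost with DESeq2 and without any of 4 libraries, replicates 1 and 3 of both groups, with an adjusted p of 0.0614 to 0.226. Mouse Idi1 and Fdps have processed copies, and the handling of reads that fit several places is not stated.

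Acat2, which joins 2 acetyl-CoA, rose by 1.12 to 1.2 fold, Mvk, the mevalonate kinase, by 1.16 to 1.22 fold, and Fdft1, the squalene synthase, by 1.19 to 1.27 fold. Sqle, the epoxidase that commits squalene to sterols, was at 381, 372 and 372 CPM in siCTRL DMSO and at 453, 446 and 449 with KL001. Its groups stood well apart in each setting, with a fold of 1.2 to 1.27. Pmvk, the phosphomevalonate kinase between Mvk and Mvd, was the exception, with log2 differences of -0.090 to -0.011 and no call in any setting. The Acat2 call in siCTRL with Dexa was lost without siCTRL KL001 Dexa replicate 3 (adjusted p = 0.0764), and a gene that overlaps Acat2 may share its reads.

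**Figure D2:**
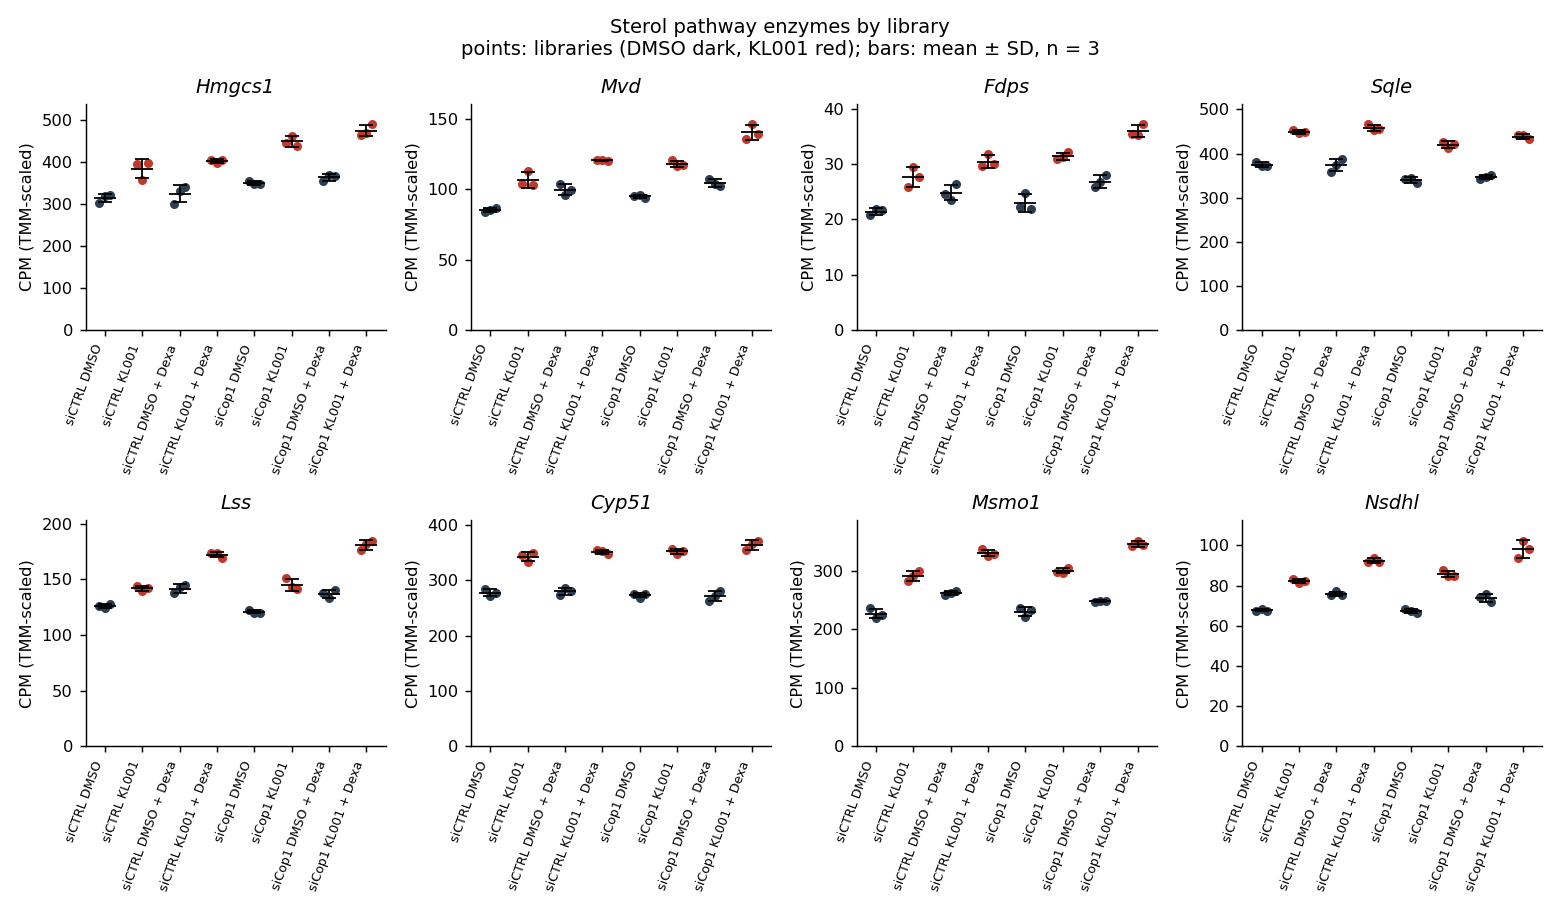
CPM in each library (vertical axis) of Hmgcs1, Mvd, Fdps, Sqle, Lss, Cyp51, Msmo1 and Nsdhl in the 8 groups (horizontal axis), with DMSO libraries dark, KL001 libraries red, and bars for the mean ± SD of 3 libraries. In all 8 panels every KL001 library lies above every DMSO library of the same siRNA and Dexa condition.

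Of the 9 genes from lanosterol to cholesterol, 7 rose in 3 settings and 8 in siCop1 cells with Dexa. Lss, which closes squalene epoxide to lanosterol, was at 138, 133 and 140.4 CPM in siCop1 DMSO with Dexa and at 176, 182 and 185 with KL001. Its fold there was 1.32, without overlap, and 1.13 in siCTRL without Dexa. Cyp51, the lanosterol demethylase, was at 285, 272 and 277 CPM in siCTRL DMSO and at 346, 333 and 349 with KL001. In siCop1 with Dexa it was at 263, 271 and 280.4 against 355, 365 and 372 CPM. In both settings the KL001 libraries were all higher, by 1.23 and 1.34 fold. Msmo1, the sterol methyl oxidase whose promoter is shown above, was at 237, 220.3 and 225 CPM in siCTRL DMSO and at 283, 291 and 299.7 with KL001. In siCop1 with Dexa it went from 246, 249 and 249 CPM to 343, 352 and 345, again without overlap (log2 0.48 ± 0.030, adjusted p = 3.98e-12).

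Nsdhl, which works with Msmo1 in removing the methyl groups, was at 74.6, 75.6 and 71.6 CPM in siCop1 DMSO with Dexa and at 93.5, 102 and 98.3 with KL001. The groups did not overlap in any setting, and the fold was 1.21 to 1.33. Sc5d, the desaturase of the B ring, rose by 1.15 to 1.26 fold and Dhcr7, the last reductase of one branch to cholesterol, by 1.13 to 1.21 fold. Hsd17b7, the keto-reductase of the demethylation complex, rose by 1.14 to 1.24 fold, but its call in siCTRL without Dexa was lost without siCTRL DMSO replicate 1, 2 or 3 or siCTRL KL001 replicate 1 or 3 (adjusted p between 0.0565 and 0.188), and that in siCop1 without Dexa without siCop1 DMSO replicate 2 or 3 or siCop1 KL001 replicate 1 (0.0508 to 0.0923). The Dhcr7 call in siCTRL was lost without siCTRL DMSO replicate 3 (adjusted p = 0.0599). Tm7sf2, a sterol C14 reductase, passed only in siCop1 with Dexa, at 21.9, 19.2 and 20.9 CPM against 26.7, 25.0 and 24.7, a call lost without siCop1 DMSO Dexa replicate 2 (adjusted p = 0.0896) or siCop1 KL001 Dexa replicate 1 (0.072). Ebp, the isomerase that shifts the ring double bond, was called in no setting, with log2 differences of -0.092 to 0.088.

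**Figure D3:**
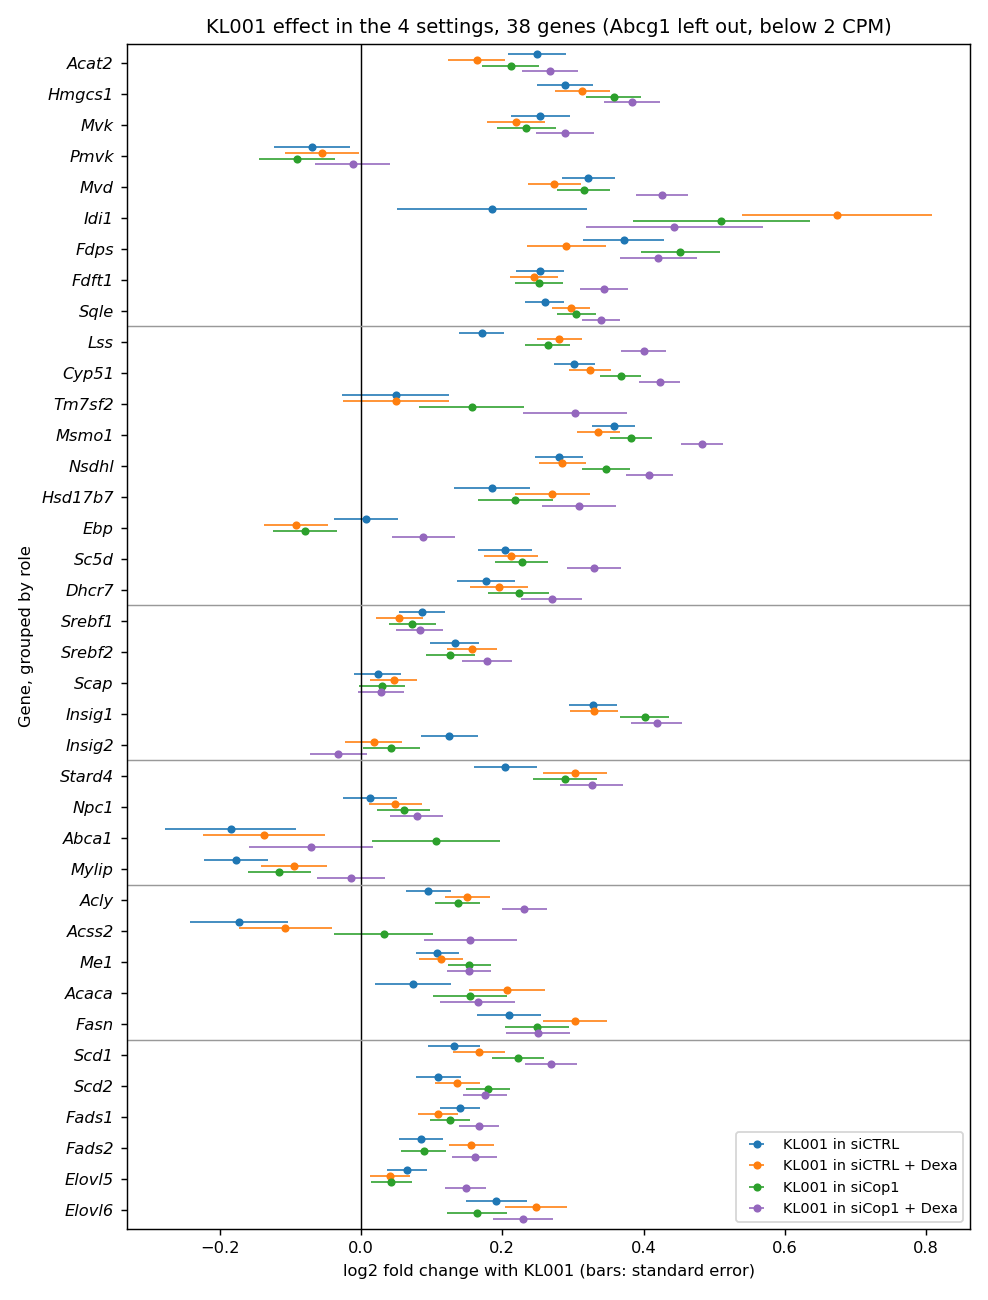
Log2 fold change of KL001 against DMSO for 38 of the 39 genes (rows, grouped by role, without Abcg1) in the 4 settings (colours), with bars of 1 standard error. Genes from Acat2 to Dhcr7 lie to the right of 0 in all 4 settings except Pmvk and Ebp, and those of siCop1 with Dexa (purple) are often the farthest right.

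Among the 5 regulators, Insig1 and Srebf2 rose with KL001 in all 4 settings, and Scap, Srebf1 and Insig2 passed in none. Insig1 was at 89.5, 91.1 and 85.6 CPM in siCTRL DMSO and at 114, 109.9 and 110.2 with KL001, and after siCop1 at 61.9, 64.2 and 58.7 and 82.6, 79.5 and 81.9. The KL001 libraries were higher without overlap in both, and the fold ranged over 1.26 to 1.34. Srebf2, which encodes the SREBP of the sterol pathway, was at 509.5, 532 and 520.4 CPM in siCTRL DMSO with Dexa and at 590.3, 573 and 578 with KL001. It was higher in all 3 KL001 libraries there (1.12-fold, adjusted p = 0.00317), while in siCTRL without Dexa the libraries overlapped, at 523, 565 and 536 against 625, 594 and 559.7 CPM. That call was lost without siCTRL DMSO replicate 1 or 3 or siCTRL KL001 replicate 1 (adjusted p 0.0615 to 0.111), and the one in siCop1 without Dexa was lost without any 1 of siCop1 DMSO replicates 1, 2 and 3 and siCop1 KL001 replicates 1 and 2 (0.0606 to 0.201). Srebf1, which encodes the SREBP of fatty acid synthesis, stood at 161 ± 5.8 CPM in siCTRL DMSO and 171 ± 4.06 with KL001 (adjusted p = 0.124). Scap, the escort protein, differed by log2 0.024 to 0.047, and Insig2, the INSIG paralog that is not a classical SREBP target, by -0.032 to 0.13.

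The median log2 change with KL001 in siCTRL without Dexa was 0.25 from mevalonate to squalene, 0.19 from lanosterol to cholesterol, 0.10 in carbon supply and 0.12 in desaturation and elongation. In siCop1 with Dexa these medians were 0.34, 0.33, 0.17 and 0.17, so both sterol groups stood above both fatty acid groups, a difference not tested. Fasn, the fatty acid synthase, was at 391, 414 and 409 CPM in siCTRL DMSO with Dexa and at 512, 508 and 478 with KL001. The groups did not overlap and the fold over the 4 settings was 1.16 to 1.23. Acly, which makes cytosolic acetyl-CoA from citrate, rose in 3 settings, by up to 1.17 fold, with log2 0.10 ± 0.032 in siCTRL without Dexa (adjusted p = 0.0717). Its call in siCop1 without Dexa was lost without siCop1 DMSO replicate 1 or 2 or siCop1 KL001 replicate 1 (0.0504 to 0.0557). Acaca, which makes malonyl-CoA, rose in siCTRL with Dexa only (1.15-fold, adjusted p = 0.0121), a call lost without siCTRL DMSO Dexa replicate 1 (0.0585) or siCTRL KL001 Dexa replicate 2 (0.0601). Me1, the malic enzyme that supplies NADPH, rose by 1.08 to 1.11 fold, and both its calls in siCTRL, with and without Dexa, were lost without replicate 1 or 2 of the DMSO group or replicate 2 or 3 of the KL001 group (adjusted p 0.0605 to 0.122). Acss2, which makes acetyl-CoA from acetate, was called in no setting and its differences had both signs, from log2 -0.17 to 0.15.

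All 6 genes of desaturation and elongation passed in siCop1 with Dexa, and 4 of them in all settings. Elovl6, which elongates palmitate, was at 119, 119 and 121 CPM in siCop1 DMSO with Dexa and at 141, 136 and 145 with KL001, 1.17-fold higher without overlap. In siCop1 without Dexa its call was lost without any 1 of the 6 libraries compared other than siCop1 DMSO replicate 3 (adjusted p 0.0518 to 0.0785). The stearoyl-CoA desaturases Scd1 and Scd2, which make oleate, lie side by side on chromosome 19 and share sequence, so reads may be split between them. Scd1 rose by 1.1 to 1.2 and Scd2 by 1.08 to 1.13 fold. In siCTRL without Dexa both calls were lost without siCTRL DMSO replicate 1 (0.133 for Scd1, 0.162 for Scd2) or siCTRL KL001 replicate 1 (0.182 and 0.205), and that of Scd1 also without siCTRL DMSO replicate 3 (0.0527). Fads1, the delta-5 desaturase of polyunsaturated fatty acids, rose by 1.08 to 1.12 fold, with its call in siCTRL with Dexa lost without siCTRL KL001 Dexa replicate 3 (0.0571). Fads2, the delta-6 desaturase, rose in the settings with Dexa (1.11-fold in siCTRL and 1.12-fold in siCop1), and Elovl5, their partner elongase, in siCop1 with Dexa only (1.11-fold).

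Of the 5 transport genes and LXR targets, 1 rose with KL001. Stard4, which carries cholesterol between membranes and is an SREBP target, was at 137, 131 and 132 CPM in siCop1 DMSO and at 164, 161 and 163 with KL001, and rose by 1.15 to 1.25 fold over the settings. Npc1, which exports cholesterol from lysosomes, and Abca1 and Abcg1, which export it from the cell, were called in no setting. Abca1 was at 28.4, 34.8 and 34.3 CPM in siCTRL DMSO and at 32.2, 22.7 and 30.4 with KL001, with overlap (adjusted p = 0.288). Abcg1 was at 0.126 to 1.2 CPM over all 24 libraries, with 3 to 31 counts per library, and a change of the size seen in the enzymes was not detectable at this depth (SE of its log2 change 0.38 in siCTRL). Mylip, the ubiquitin ligase that degrades lipoprotein receptors, was the single gene that fell with KL001, in siCTRL without Dexa, from 71.4, 74.9 and 67.3 to 63.5, 61.97 and 63.4 CPM. The groups did not overlap (log2 -0.18 ± 0.045, adjusted p = 0.0126), but the call was lost without siCTRL DMSO replicate 2 (adjusted p = 0.101), and its log2 differences in the other settings were -0.095, -0.12 and -0.014, none called.

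Of the 23 genes that rose with KL001 in all 4 settings, 14 kept all 4 calls whichever single library was left out, and 10 did so under every alternative run: Cyp51, Fdft1, Fdps, Hmgcs1, Insig1, Msmo1, Mvd, Mvk, Nsdhl and Sqle. A fit on the 6 libraries of siCTRL without Dexa alone called 11 of the 39 genes, all higher, in place of 24, beside 1.62% of all genes in place of 6.73%. The spread was not equal across groups. Between 2 libraries of siCTRL KL001, chi-square per degree of freedom of the counts was 3.994 to 8.759. It was 1.752 to 5.266 in siCTRL DMSO and 1.705 to 1.937 in siCop1 DMSO. The part of this spread in the lower count was not tested.

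siCop1 moved these genes in both directions. In DMSO 8 rose and 12 fell (29.4% of all genes changed, 12.8% higher and 16.6% lower). In DMSO with Dexa 7 rose and 12 fell (31.1%, 14.4% and 16.7%), in KL001 12 rose and 10 fell (32.7%, 14.5% and 18.2%), and in KL001 with Dexa 11 rose and 8 fell (30.1%, 13.7% and 16.3%). The median log2 difference of the 39 genes was between -0.049 and 0.068 over the 4 settings. Their median absolute log2 difference was 0.127, 0.110, 0.124 and 0.119 in the order above. For all genes tested it was 0.125, 0.129, 0.133 and 0.128, so the differences were of a like size. Lower in all 4 were Insig1 and Srebf1 of the regulators, Acly, Dhcr7, and the polyunsaturated fatty acid genes Fads1, Fads2 and Elovl5. Higher in all 4 were Fasn, Acaca, Elovl6, Hmgcs1 and Scap. No gene was called in both directions across settings, and 11 were called in none, among them Srebf2, Cyp51, Lss and Stard4. The shares of all genes called in the same direction in all 4 settings were not counted. They can be at most 12.8% higher and 16.3% lower. KL001 and siCop1 comparisons share control libraries, so their values stand side by side here without a test of likeness.

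Among called genes, Insig1 had the largest difference with siCop1. In DMSO with Dexa it was at 85.7, 87.5 and 87.01 CPM in siCTRL and at 57.8, 57.6 and 57.8 in siCop1. The siCop1 libraries lay far below without overlap, 1.5-fold lower (log2 -0.59 ± 0.036, adjusted p = 1.06e-13), and in the other settings it was 1.44, 1.37 and 1.41 fold lower. KL001 and siCop1 thus moved Insig1 in opposite directions, and siCop1 cells with KL001 (81.4 ± 1.64 CPM) were below siCTRL cells without it (88.7 ± 2.79 CPM), a comparison of values without a test. Srebf1 was at 161, 167 and 156 CPM in siCTRL DMSO and at 144, 138 and 139 in siCop1 DMSO, all lower, with log2 differences of -0.22 to -0.15 over the settings. Scap was 1.11 to 1.12 fold higher, at 115, 117 and 118 CPM in siCTRL DMSO and 131, 133 and 127 in siCop1 DMSO. Srebf2 differed by log2 -0.036 to -0.012 and was called in none. Insig2 passed in DMSO with Dexa only (log2 0.12 ± 0.040), a call lost with DESeq2 (adjusted p = 0.0554) and without siCTRL DMSO Dexa replicate 1, 2 or 3 or siCop1 DMSO Dexa replicate 1 (0.0653 to 0.208).

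**Figure D4:**
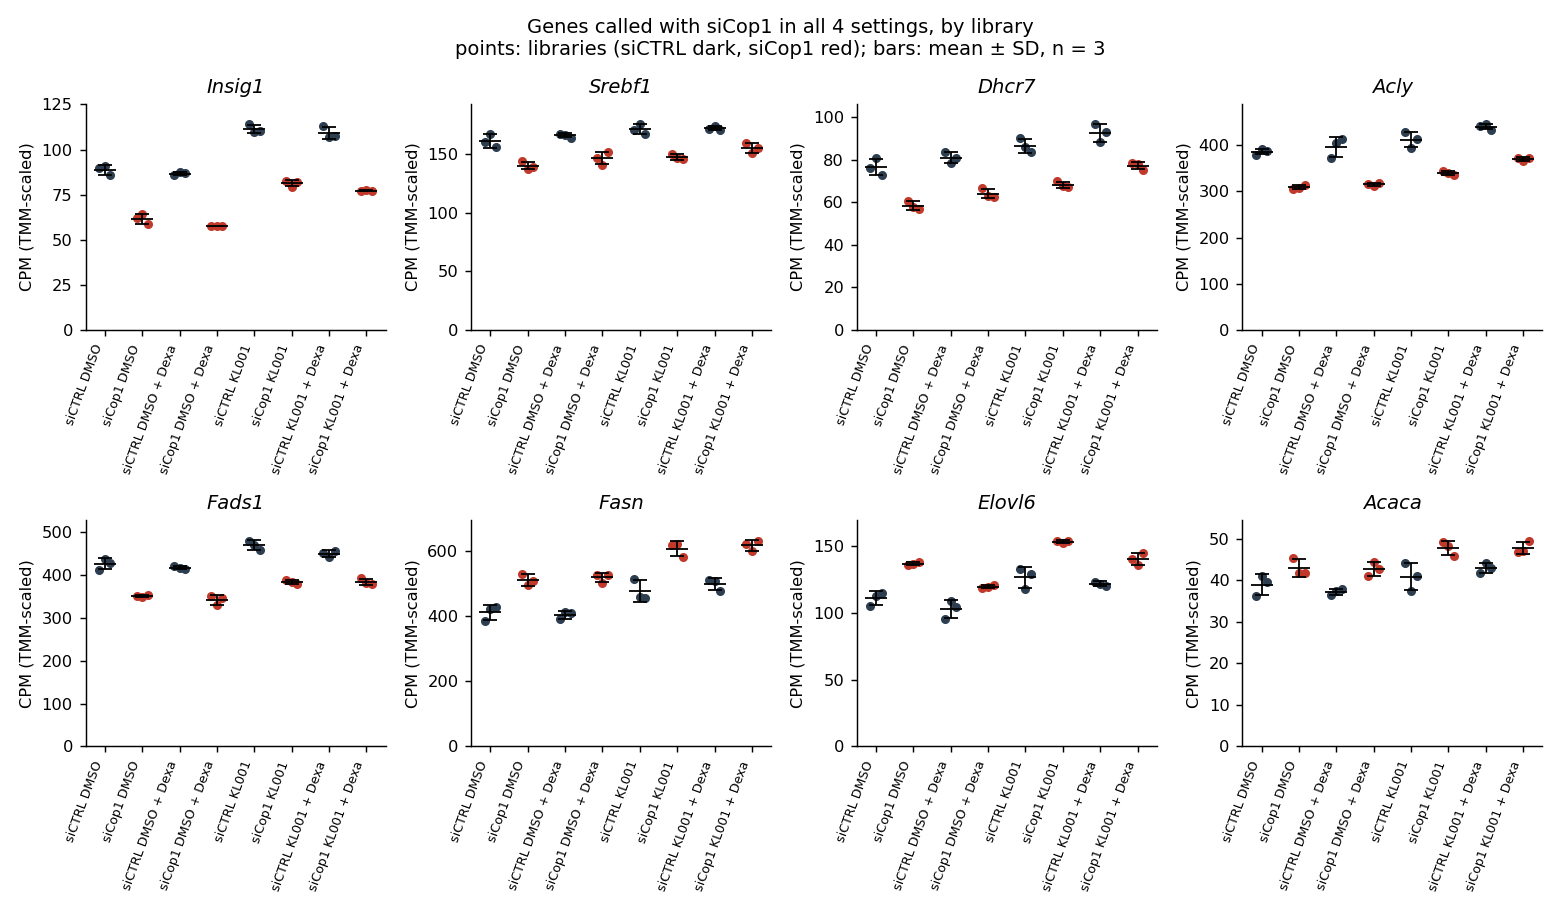
CPM in each library for 8 genes called with siCop1 in all 4 settings (panels), with siCTRL libraries dark and siCop1 libraries red, and bars for the mean ± SD of 3 libraries. In the panels of Insig1, Srebf1, Dhcr7, Acly and Fads1 the red points lie below the dark points of the same treatment, and in those of Fasn, Elovl6 and Acaca above.

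The enzymes of acetyl-CoA and fatty acid synthesis split. Acly was at 373, 404 and 414 CPM in siCTRL DMSO with Dexa and at 317, 312 and 317 in siCop1, 1.26-fold lower without overlap, with log2 differences of -0.33 to -0.25 over the settings. Fasn, which uses the acetyl-CoA that Acly makes, went the other way, from 391, 414 and 409 to 527, 502 and 527 CPM. It was 1.24 to 1.28 fold higher, and no siCop1 library overlapped a siCTRL library in any setting. Acaca was 1.1 to 1.17 fold higher, a smaller difference, and its call in DMSO was lost with the replicate number as a block (adjusted p = 0.0547) and without siCTRL DMSO replicate 1 (0.265) or siCop1 DMSO replicate 1 (0.243). Its call in KL001 with Dexa was lost without siCTRL replicate 1 or 3 or siCop1 replicate 3 of that setting (0.0688 to 0.113). Me1 fell in 3 settings (log2 -0.13 in DMSO), but the call in DMSO with Dexa was lost without siCTRL replicate 3 or siCop1 replicate 1 or 2 of that setting (0.056 to 0.102), and the call in KL001 without siCTRL replicate 2 or 3 or any siCop1 replicate (0.0634 to 0.115). Acss2 fell in DMSO only (log2 -0.21 ± 0.069), a call lost without siCTRL DMSO replicate 1 or 2 or siCop1 DMSO replicate 2 (0.0714 to 0.14).

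Elongation and desaturation split as well. Elovl6 was at 105, 113 and 115 CPM in siCTRL DMSO and at 136, 136 and 138 in siCop1 DMSO, 1.23-fold higher without overlap. Fads1 was at 479.6, 470.4 and 458 CPM in siCTRL KL001 and at 387, 382 and 379 in siCop1 KL001, 1.23-fold lower without overlap. Fads2, its neighbour on chromosome 19, fell too, with a log2 change of -0.18 in DMSO and -0.11 in KL001 with Dexa. That last call was lost without siCTRL KL001 Dexa replicate 1 (adjusted p = 0.0552), and both calls with Dexa when each library's trend against GC content and length was removed (0.113 in DMSO, 0.0757 in KL001). Elovl5 had log2 differences of -0.19 to -0.080, and its call in KL001 with Dexa was lost without siCTRL replicate 1 or 3 or any siCop1 replicate of that setting (adjusted p 0.0533 to 0.166). Scd2 was lower in the settings with Dexa (log2 -0.14 and -0.10), where without Dexa it differed by -0.067 and 0.004, not called. Scd1 fell in DMSO only (log2 -0.10 ± 0.037), a call lost without siCTRL DMSO replicate 2 or 3 or siCop1 DMSO replicate 1 or 2 (0.0782 to 0.192). The Scd2 call in KL001 with Dexa was lost without siCTRL KL001 Dexa replicate 1 (0.0567).

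In the sterol pathway siCop1 lowered Dhcr7 most, from 76.2, 80.6 and 72.9 CPM in siCTRL DMSO to 60.8, 57.6 and 56.7 in siCop1 DMSO. The siCop1 libraries were all lower, by 1.31 fold (log2 -0.39 ± 0.043, adjusted p = 2.28e-08), and by 1.2 fold in KL001 with Dexa. Of the 9 genes from lanosterol to cholesterol it was the single one called in all settings. Sqle was lower in 3 settings (log2 -0.14 in DMSO, -0.11 in DMSO with Dexa and -0.10 in KL001), the last of these not called with no filter on low counts (0.0753) or on the groups compared only (0.104). Mvk was lower in 3 (log2 -0.13 to -0.054 over the 4), calls that did not hold with the GC and length trend removed (adjusted p 0.174 to 0.377). Each Mvk call was also lost without 1 library: in DMSO any but siCTRL replicate 3, in DMSO with Dexa siCTRL replicate 1 or siCop1 replicate 2, and in KL001 siCTRL replicate 2 or siCop1 replicate 3 (0.0635 to 0.206). Hmgcs1 rose in all 4 settings, in KL001 with Dexa from 406, 398 and 405 to 465, 469 and 489.6 CPM, 1.18-fold without overlap. Mvd and Fdft1 rose in 3 settings, by up to 1.17 and 1.1 fold, and Fdps in the 2 settings with KL001 (1.14 and 1.18 fold), the first of these lost without siCTRL KL001 replicate 1 (0.0776). Acat2 rose in DMSO and in KL001 with Dexa (log2 0.14 in each), calls lost without siCTRL DMSO replicate 3 or siCop1 DMSO replicate 1 or 3 (0.0501 to 0.0629) and without siCTRL KL001 Dexa replicate 2 (0.0957). Sc5d rose in both KL001 settings (log2 0.10 and 0.15), the call without Dexa lost without siCTRL KL001 replicate 2 or siCop1 KL001 replicate 1 or 3 (0.0643 to 0.147), with the GC and length trend removed (0.401) and on the groups compared only (0.0714). Msmo1 fell in DMSO with Dexa only (log2 -0.079 ± 0.030), a call lost without any 1 of the 6 libraries other than siCTRL replicate 1 (0.0774 to 0.113).

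Idi1 rose in DMSO with Dexa, from 2.84, 2.59 and 3.15 to 3.68, 4.47 and 3.77 CPM, and in KL001 without Dexa, from 3.46, 3.25 and 4.25 to 4.95, 5.68 and 5.0. The groups did not overlap in either (log2 0.47 ± 0.14 and 0.51 ± 0.13), and the call in DMSO with Dexa was lost without siCop1 DMSO Dexa replicate 2 (adjusted p = 0.0661). Of the transport genes, Abca1 passed in KL001 without Dexa only, at 32.2, 22.7 and 30.4 CPM in siCTRL and 34.2, 36.9 and 33.2 in siCop1. Replicate 2 of siCTRL was low there, and without it the adjusted p was 0.119, without siCop1 KL001 replicate 2 it was 0.0943. Npc1 was 1.09 and 1.09 fold higher in the settings with KL001, calls that were lost without siCTRL KL001 replicate 2 or siCop1 KL001 replicate 2 and without siCTRL or siCop1 KL001 Dexa replicate 3, respectively (adjusted p 0.0691 to 0.137). With the GC and length trend removed, the Npc1 call in KL001 was lost too (0.201). Mylip, Stard4 and Abcg1 were called in none. Of the 12 genes called in the same direction in all 4 settings, 9 kept all calls under every alternative run: Elovl6, Fasn, Hmgcs1 and Scap higher, and Acly, Dhcr7, Fads1, Insig1 and Srebf1 lower.

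**Figure D5:**
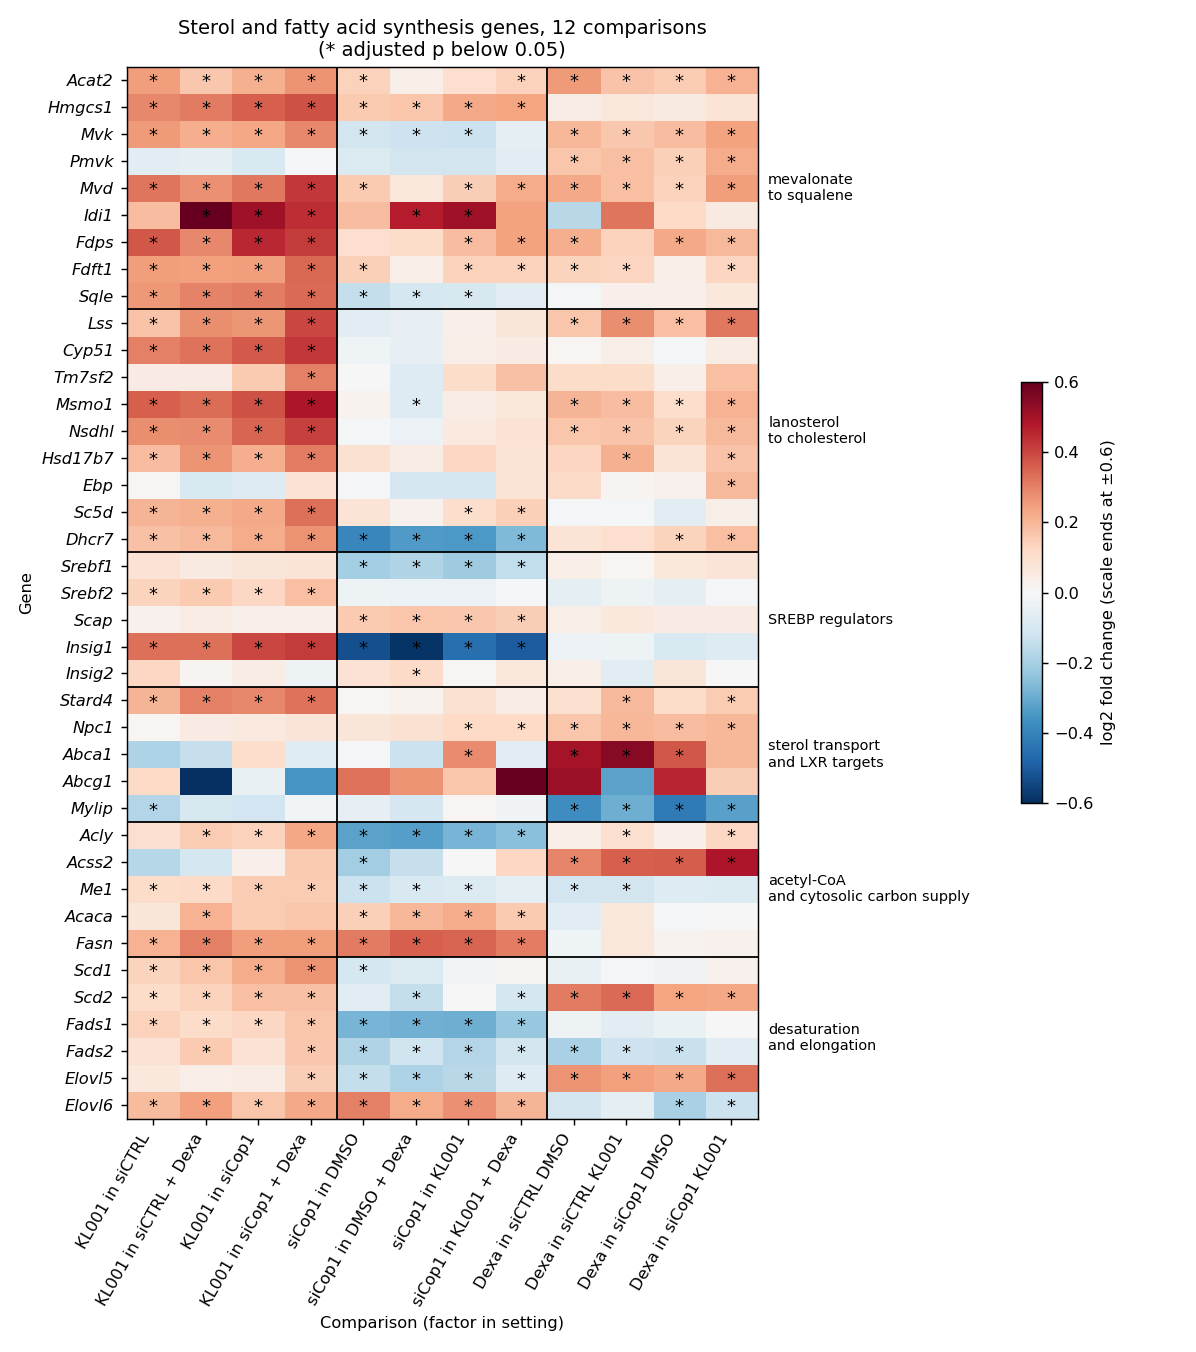
Log2 fold change (colour, red higher and blue lower, scale ending at ±0.6) of the 39 genes (rows, grouped by role) in the 12 comparisons (columns), with an asterisk where the adjusted p is below 0.05. The 4 KL001 columns are red for most sterol enzymes, the 4 siCop1 columns hold both colours with Insig1, Dhcr7, Acly and Fads1 blue, and the 4 Dexa columns are blue for Mylip.

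Dexa raised some enzymes of sterol synthesis, Acss2, Elovl5, Scd2 and, in 3 of the 4 settings, Abca1, and lowered Mylip. In siCTRL DMSO 14 rose and 3 fell (26.8% of all genes changed, 12.7% rose and 14.1% fell), in siCTRL KL001 16 and 3 (26.8%, 12.7% and 14%), in siCop1 DMSO 14 and 3 (23.7%, 12% and 11.6%), and in siCop1 KL001 18 and 2 (24.5%, 12.1% and 12.4%). The median absolute log2 change of the 39 genes was 0.115, 0.126, 0.106 and 0.149 in this order. For all genes tested it was 0.116, 0.115, 0.107 and 0.109. Higher in all 4 settings were 11: Acat2, Mvk, Pmvk and Mvd of the mevalonate stretch, Lss, Msmo1 and Nsdhl of the sterol stretch, Acss2, Scd2, Elovl5 and Npc1. Mylip was lower in all 4, and 16 genes were called in none, all 5 regulators among them. Pmvk and Npc1, called in no KL001 comparison, thus rose with Dexa, and Cyp51, Hmgcs1, Sqle and Insig1, which rose with KL001 in every setting, were not called with Dexa. Acss2, Elovl5, Lss, Mvd, Mvk, Npc1, Nsdhl and Scd2, and Mylip, kept all 4 Dexa calls under every alternative run. How many of all genes were called in the same direction in all 4 settings was not counted. Their shares can be at most 12% higher and 11.6% lower.

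Acss2 was at 20.2, 19.2 and 16.2 CPM in siCop1 KL001 and at 25.2, 25.97 and 26.7 with Dexa, 1.4-fold higher without overlap, and the fold over the settings was 1.23 to 1.4. Elovl5 was at 178, 178 and 182 CPM in siCTRL DMSO and at 217, 216 and 215 with Dexa, with 1.17 to 1.26 fold over the settings. Scd2 went from 3587, 3228 and 3315 CPM in siCTRL KL001 to 4348, 4238 and 4241 with Dexa (1.27-fold, adjusted p = 4.64e-10). The Dexa libraries of all 3 genes were above the others in every setting, whereas Scd1, the neighbour of Scd2, differed by log2 -0.043 to 0.024 and was called in none. Fads2 fell in 3 settings (log2 -0.20 in siCTRL DMSO), and Elovl6 in both siCop1 settings (log2 -0.19 and -0.13). The Elovl6 call in siCop1 KL001 was lost without replicate 1 or 3 of siCop1 KL001 or replicate 1 or 2 of siCop1 KL001 Dexa (0.0589 to 0.135). Me1 fell in the siCTRL settings (log2 -0.11 and -0.11), calls lost with no filter on low counts (adjusted p = 0.0739 and 0.0986), the one in DMSO also without siCTRL DMSO replicate 3 or siCTRL DMSO Dexa replicate 2 (0.0754 to 0.0806). Fasn, Acaca, Srebf1 and Srebf2 were called in no setting, with Fasn at 412 ± 23.6 CPM in siCTRL DMSO and 405 ± 11.9 with Dexa.

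In the sterol pathway, Lss was at 151, 143 and 141 CPM in siCop1 KL001 and at 176, 182 and 185 with Dexa, 1.25-fold higher without overlap, and 1.12-fold higher in siCTRL DMSO. Mvd was at 121, 116 and 117 CPM in siCop1 KL001 and at 136, 146 and 139.6 with Dexa, 1.19-fold higher. Acat2 was at 72.3, 75.2 and 69.4 CPM in siCTRL DMSO and at 89.2, 82.9 and 86.5 with Dexa, 1.19-fold higher. In both, the lowest Dexa library was above the highest library without it. The Acat2 call in siCop1 DMSO was lost without siCop1 DMSO replicate 2 (adjusted p = 0.0631). Mvk rose by 1.12 to 1.18 fold, Nsdhl by 1.1 to 1.14 and Msmo1 by 1.08 to 1.15 fold, the lowest of these in siCop1 DMSO, where the Msmo1 call was lost without siCop1 DMSO replicate 2 (0.0932). Pmvk rose by 1.11 to 1.17 fold, with a call in siCop1 DMSO that was lost without any 1 of the 6 libraries other than siCop1 DMSO replicate 1 (0.0586 to 0.287) and with the replicate number as a block (0.0583). In siCTRL its calls were lost without siCTRL DMSO replicate 2 or 3 or siCTRL DMSO Dexa replicate 1 (0.0529 to 0.109), and without siCTRL KL001 replicate 1 (0.0851). Fdps rose in 3 settings, in siCTRL DMSO by 1.16 fold, and Fdft1 in 3, by 1.1 fold there. Dhcr7, Hsd17b7, Ebp and Acly rose in 1 or both of the KL001 settings, by at most 1.16 fold. The Hsd17b7 call in siCop1 KL001 was lost without siCop1 KL001 replicate 3 (0.0615) or siCop1 KL001 Dexa replicate 2 (0.0602). The Acly call in siCTRL KL001 was lost without siCTRL KL001 replicate 2 or siCTRL KL001 Dexa replicate 1 or 2 (0.0522 to 0.166). Dhcr7 also rose in siCop1 DMSO (log2 0.13 ± 0.043), a call lost without siCop1 DMSO replicate 2 or 3 or siCop1 DMSO Dexa replicate 1 (0.0847 to 0.13).

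Sterol transport had 3 or 4 of 5 genes called with Dexa. Abca1 was at 28.4, 34.8 and 34.3 CPM in siCTRL DMSO and at 43.1, 47.8 and 46.7 with Dexa, and at 32.2, 22.7 and 30.4 and 42.9, 42.05 and 40.1 in siCTRL KL001. The Dexa libraries were higher without overlap in both, by 1.41 and 1.46 fold. It was 1.3-fold higher in siCop1 DMSO, and in siCop1 KL001 34.2, 36.9 and 33.2 against 41.1, 36.9 and 41.8 CPM, by a narrow margin without overlap, and not called (adjusted p = 0.123). Npc1 rose by 1.12 to 1.15 fold and Stard4 in the KL001 settings (log2 0.20 in siCTRL and 0.15 in siCop1, the latter lost without siCop1 KL001 Dexa replicate 3, adjusted p = 0.0507). Mylip fell from 68.5, 67.4 and 70.6 CPM in siCop1 DMSO to 52.5, 52.7 and 48.6 with Dexa. The groups did not overlap, here or in the other settings, and it was 1.34 fold lower here and 1.22 to 1.3 fold lower in siCTRL. Abca1 and Mylip, both LXR targets, therefore moved in opposite directions.

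The summed level of 7 adipocyte markers was higher with Dexa too. It went from 34.6 to 41.2 CPM in siCTRL DMSO to 69.8 to 74.6 with Dexa, from 38.6 to 43.6 to 69.96 to 71.1 in siCTRL KL001, from 34.7 to 37.1 to 84.5 to 94.0 in siCop1 DMSO, and from 40.0 to 40.5 to 93.2 to 96.3 in siCop1 KL001. That sum came from Fabp4, Pparg and Cebpa, 3 of 7, with Adipoq, Plin1, Cidec and Lep at or near 0. Over all libraries Fabp4 ranged from 15.8 to 81.0 CPM, Pparg from 7.38 to 14.2 and Cebpa from 5.10 to 10.2. The higher sum with Dexa was thus mostly Fabp4. Markers of epithelial (4 genes), endothelial (3), leukocyte (4) and muscle (3) cells summed to at most 13.7, 1.95, 3.73 and 7.11 CPM in any library. With siCop1 in DMSO the muscle sum went from 2.38 to 4.83 CPM to 0.202 to 0.505, the endothelial sum from 1.6 to 1.95 to 0.596 to 0.806, and the leukocyte sum from 1.89 to 2.24 to 2.58 to 3.38. Muscle was lower and leukocyte higher with siCop1 without overlap in all 4 settings, and endothelial was lower in the 2 without Dexa. Myod1 and Myog had 0 counts in all 24 libraries, so the muscle sum was Des alone (0.202 to 7.11 CPM). The leukocyte sum was mostly Cd68 (1.83 to 3.45 CPM), with Cd3e, Ptprc and Itgam never above 0.486 CPM. Neither sum therefore shows a change of its marker set. The endothelial sum was also lower with Dexa in both siCTRL settings. The fibroblast sum was mostly Col1a1 and Col1a2 (medians over all libraries of 18599 and 14020 CPM). Thy1, Pdgfra and Pdgfrb had medians of 327, 107 and 358 CPM, so the sum says little of them. The fibroblast markers summed to 54978 to 58363 CPM in siCTRL DMSO, 48005 to 52615 in siCTRL KL001 and 48550 to 50060 in siCop1 DMSO, and were lower with KL001 and with siCop1 without overlap in all 4 settings of each. With Dexa they summed to 53294 to 54150 in siCTRL DMSO and 46415 to 48031 in siCop1 DMSO, lower without overlap, and overlapped in both KL001 settings. Their part in the results on sterol and fatty acid genes was not tested.

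Whether 1 factor changed the effect of another was tested directly. In none of the 6 tests was any of the 39 genes called, by edgeR's quasi-likelihood test or by DESeq2. For siCop1 by Dexa in DMSO and in KL001, 2 and 4 genes had an unadjusted p below 0.05 (0.67% and 0.562% of all genes called, 7.6% and 7.67% with an unadjusted p below 0.05). For KL001 by Dexa in siCTRL and siCop1, 2 and 6 did (0% and 0.0677% of all genes called, 6.01% and 4.54% unadjusted). For siCop1 by KL001, 2 did without Dexa and 11 with Dexa (0% and 0.0677% called, 6.65% and 6.93% unadjusted). In that last test 33 of 39 terms were positive, with a median term of 0.070, beside 0.00048 over all genes. The share of positive terms over all genes was not counted. All 39 genes were measured in the same libraries, so their signs are not separate observations. Msmo1 had the lowest adjusted p (0.267, log2 0.15 ± 0.042), followed by Mvd (log2 0.15 ± 0.053, adjusted p = 0.467) and by Ebp and Acss2. With Dexa, KL001 raised Msmo1 by 1.26 fold in siCTRL and by 1.4 fold in siCop1, a difference not called here. Msmo1 was called in this test when the trend against GC content and length was removed, and Abca1 in siCop1 by Dexa under KL001 with that setting or with no filter on low counts. As tested here, the Abca1 term was log2 -0.35 ± 0.13 (adjusted p = 0.411).

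With all 3 treatments together, 20 of the 39 genes had the highest mean of the 8 groups. The like share over all genes was not counted, so this is not read as a trait of the list. Fdps went from 20.7, 21.8 and 21.6 CPM in siCTRL DMSO to 35.4, 35.3 and 37.2 in siCop1 KL001 with Dexa, 1.68-fold. Mvd reached 1.65-fold, from 83.8, 85.2 and 86.8 to 136, 146 and 139.6 CPM. Idi1 was 1.68-fold, Msmo1 1.52-fold, Hmgcs1 1.51-fold, Fasn 1.5-fold, Acat2 1.47-fold and Nsdhl 1.45-fold higher, each without overlap between these 2 groups. The 7 genes that siCop1 lowered in all 4 settings differed among themselves. Elovl5 was at 1.17-fold, higher without overlap, and Dhcr7 at 1.01-fold and Srebf1 at 0.963-fold, both with overlap. Insig1 was at 0.869-fold, from 89.5, 91.1 and 85.6 to 77.2, 77.4 and 76.9 CPM. Fads1 was at 0.90-fold, Fads2 at 0.899-fold and Acly at 0.96-fold, all 3 lower without overlap. Mylip, lower with Dexa and called with siCop1 in no setting, was at 0.712-fold, also without overlap. These ratios combine 3 factors and were given no test of their own.

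Of 45 other genes of the pathway, 42 passed the filter on low counts, and Mlxipl, Elovl3 and Thrsp did not. With KL001 9, 13, 9 and 10 of the 42 changed in siCTRL, siCTRL with Dexa, siCop1 and siCop1 with Dexa, of which 9, 11, 9 and 10 rose (21.4% to 31% changed, beside 4.09% to 10.6% of all genes). Aacs, which turns acetoacetate into acetoacetyl-CoA for sterol synthesis, was at 151, 147 and 149 CPM in siCTRL DMSO and 182, 184 and 174 with KL001, and rose by log2 0.27 to 0.34 over the 4 settings without overlap. The fatty acid activating enzymes Acsl3 (log2 0.20 to 0.27) and Acsl5 (0.17 to 0.22), the electron carrier Cyb5b (0.11 to 0.13) and Fads3 (0.11 to 0.15) also rose in all 4. Apart from Fads3, these were picked for naming with their values in view. The site-1 protease Mbtps1, which cleaves SREBPs, was called in no KL001 comparison. With siCop1 21, 21, 23 and 23 changed (50% to 54.8%, beside 29.4% to 32.7% of all genes), of which 13, 16, 16 and 15 fell (16.3% to 18.2% of all genes fell). Fads3, in the same cluster as Fads1 and Fads2, was at 394, 398 and 385 CPM in siCTRL DMSO and 281, 278 and 274 in siCop1 (log2 -0.50 ± 0.028), without overlap.

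Vldlr, a lipoprotein receptor that MYLIP degrades, was at 169, 175 and 183 CPM in siCTRL DMSO and 118, 117 and 125 in siCop1 (log2 -0.55 ± 0.042), and Pltp, a phospholipid transfer protein and LXR target, was at 61.6, 61.3 and 60.5 and 41.5, 43.2 and 43.3 (log2 -0.52 ± 0.046). Both fell with siCop1 in all 4 settings. With Dexa 16, 15, 13 and 12 of the 42 changed in siCTRL DMSO, siCTRL KL001, siCop1 DMSO and siCop1 KL001. These shares, 38.1%, 35.7%, 31% and 28.6%, stand beside 26.8%, 26.8%, 23.7% and 24.5% of all genes, and the last is near that background. Acsl4, which activates arachidonate, rose from 67.7, 55.02 and 65.4 to 98.2, 95.9 and 88.96 CPM in siCTRL KL001 (log2 0.59 ± 0.057), and Elovl7, an elongase, fell there from 12.2, 12.01 and 12.7 to 9.18, 8.34 and 7.61 (log2 -0.55 ± 0.074). The oxysterol enzymes Ch25h and Cyp7b1 stayed below 1 CPM in every library. Their called differences (Ch25h with Dexa in siCTRL KL001, log2 -2.79, and in siCop1 DMSO, -1.20, and with siCop1 in KL001, -1.38; Cyp7b1 with siCop1 in DMSO with Dexa, -0.93) rest on few counts.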

How the data were processed

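Messenger RNA of 24 libraries of mouse embryonic fibroblasts was sequenced on an Illumina HiSeq after stranded TruSeq preparation, per the labels' protocols. The authors deposited raw counts per gene, used here, and a table of normalized signal, not used here. The submitters' processing notes name STAR 2.4.5a, featureCounts of Subread 1.4.6-p3, DESeq2 and GRCm38. Settings for strand and for multimapping reads are not stated, so Idi1, Fdps, Scd1, Scd2 and Acat2, which have near copies or overlapping neighbours, are uncertain.

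Genes were filtered with filterByExpr (minimum count 10, total 15) and scaled by TMM. One model over all 8 groups was fitted with edgeR 4.0.16 (R 4.3.3) by the quasi-likelihood test, p-values adjusted by Benjamini-Hochberg over 14772 genes, with 12 comparisons of 1 factor and 6 interactions. No lane or batch is given per library, so none was modelled. The 39 members, gene lists and tests were chosen with earlier results of these data known. By rule, values per library are given for the up to 8 called genes with the largest change per factor, and other pathway genes are named when called at an absolute log2 change of at least 0.5. A gene that met the latter is not reported here. Further members given by library, and Aacs, Acsl3, Acsl5, Cyb5b and Mbtps1, were chosen with their values in view. Alternatives were size factors of DESeq2 in edgeR, no filter, DESeq2 1.42.0, a fit on the groups compared only, the replicate number as a block, each library left out, and, chosen after seeing the data, removal of each library's trend against GC content and length.

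Same-numbered libraries of 2 groups deviated together (every correlation over 0.1) in 2 of 12 comparisons, Dexa in siCTRL KL001 and KL001 in siCTRL with Dexa. Library names share a stem across the treatments of the same siRNA and replicate number. Labels do not say that such libraries shared a culture. The replicate block joined the same number of both siRNAs, and a block by stem was not fitted. Promoter sequences come from RefSeq (GRCm38.p6).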

Additional observations from a re-analysis of the deposited data

Results flagged for a closer look

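Fkbp5, used above as a check of Dexa, was singled out because its response to Dexa differed between siCTRL and siCop1 by the interaction test. In DMSO it was at 37.3, 35.4 and 36.5 CPM in siCTRL and 727, 715 and 714 with Dexa, and after siCop1 at 52.3, 50.03 and 50.1 and 602, 584 and 584. Dexa raised it by log2 4.30 ± 0.036 (SE) in siCTRL and 3.54 ± 0.035 in siCop1, an interaction of -0.76 ± 0.048 (adjusted p = 2.06e-11, edgeR's quasi-likelihood test). With KL001 the interaction was -0.64 ± 0.048 (adjusted p = 1.01e-09). Tsc22d3, the other Dexa check gene, had positive terms, log2 0.11 ± 0.042 in DMSO and 0.11 ± 0.043 with KL001. Neither was called (adjusted p = 0.439 and 0.465, same test). None of the 39 sterol and fatty acid genes was called in the same tests, and the cause of the Fkbp5 difference was not tested.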

How the results depend on the processing

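Of 257 called pairs of gene and comparison among the 39 genes, 196 kept the call under every alternative and 61 lost it under at least 1, 51 of these when 1 library was left out and 30 when only the compared groups were fitted. None reversed. Size factors of DESeq2 in edgeR ended 5 calls (adjusted p 0.0524 to 0.0714): Pmvk with Dexa in siCop1 DMSO, Mvk and Scd1 with siCop1 in DMSO, Msmo1 in DMSO with Dexa and Me1 in KL001. DESeq2 ended 6 (0.0554 to 0.0844), those of Pmvk, Mvk, Scd1 and Me1 again, Insig2 with siCop1 in DMSO with Dexa and Idi1 with KL001 in siCop1 with Dexa. No filter on low counts ended 16 (0.0507 to 0.306), 6 of them of Me1, 2 of Msmo1 and 1 each of Dhcr7, Pmvk, Mvk, Scd1, Insig2, Sqle, Elovl5 and Npc1. Removing the trend against GC content and length ended 8 (0.0507 to 0.401), 3 of Mvk, 2 of Fads2 and 1 each of Dhcr7, Npc1 and Sc5d. Of the 30 calls that ended on the groups compared only (0.0514 to 0.321), 13 were for KL001 in siCTRL. On the groups compared only, KL001 in siCTRL gave 11 of the 39 genes in place of 24 and 225 of all genes in place of 994, and all-gene counts rose to 950 for KL001 in siCop1 and 1435 for KL001 in siCop1 with Dexa; the cause was not tested. With the trend against GC content and length removed, all-gene counts were 1583 for KL001 in siCTRL and 958 for KL001 in siCop1, and 1 gene of the list was called for siCop1 by KL001 with Dexa (Msmo1, higher) and 1 for siCop1 by Dexa in KL001 (Abca1, lower). The latter was also called, as 1 gene, with no filter on low counts.

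Without 1 library, the genes of the list changed by KL001 numbered 19 to 24 in siCTRL, 24 to 27 in siCTRL with Dexa, 21 to 24 in siCop1 and 26 to 28 in siCop1 with Dexa. For siCop1 they numbered 16 to 19 in DMSO, 15 to 18 in DMSO with Dexa, 17 to 24 in KL001 and 15 to 19 in KL001 with Dexa. For Dexa they numbered 15 to 20 in siCTRL DMSO, 18 to 20 in siCTRL KL001, 13 to 17 in siCop1 DMSO and 18 to 20 in siCop1 KL001, and every interaction stayed at 0. All-gene counts for KL001 ranged over 653 to 1165, 928 to 1416, 421 to 461 and 502 to 611 in the same order. The count for siCTRL was 653 without siCTRL DMSO replicate 3. That for siCTRL with Dexa was 928 without siCTRL DMSO Dexa replicate 1 and 962 without siCTRL KL001 Dexa replicate 3. That for siCop1 with Dexa was 509 without siCop1 DMSO Dexa replicate 1 and 502 without siCop1 KL001 Dexa replicate 3.

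With the replicate number as a block, the list counts were 24, 27, 25 and 28 for KL001, 19, 19, 22 and 20 for siCop1 and 17, 20, 16 and 22 for Dexa, and 0 for each interaction. The block ended 2 calls, Pmvk with Dexa in siCop1 DMSO and Acaca with siCop1 in DMSO, both given above. Correlations of same-numbered libraries ran from -0.29 to 0.464. With 3 libraries a group, genes of few counts, such as Abcg1 and Idi1, have wide errors.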
